A study of Mus musculus with 12 samples.

Results

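The dorsal hippocampus of trained wild-type mice was compared with that of wild-type mice left as house controls, over every gene counted. The comparison takes the libraries whose titles carry wt_TR (3) and wt_HC (3), which are 6 of the 12 libraries of a series on Mbnl2, the gene of an RNA-binding splicing regulator of the muscleblind family. All 12 libraries came from male 129sv/C57BL/6j mice, aged 4 to 5 months. The WT house control and WT trained groups carry the genotype label Mbnl2 WT, and the other 6 libraries are Mbnl2 KO house control and Mbnl2 KO trained mice, 3 of each. The KO allele, the training task, the time from training to dissection and the handling of the house controls are not stated by the labels, so "trained" is used only as their word. Each library was made from polyadenylated RNA of bulk tissue. The 6 WT libraries held 19737929 to 26524204 counts each, with 17493 to 18300 genes detected, and 15622 of the 24421 genes in the files had enough counts to be tested. The labels do not say that the 3 libraries of a group came from 3 animals, but each title opens with a number of its own. It is read here as an animal number, which the labels do not state. A split by the size of this number, made here, gives 2 number series. The first holds 2 WT libraries per group, and the second holds house control 3 and trained 3.

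Neurons that fire transcribe a set of immediate early genes within minutes. The first of these encode transcription factors (the AP-1, Egr and Nr4a families, Npas4), together with effectors that act at the synapse (Arc, Homer1), and a slower group of secreted and synaptic proteins (Bdnf, Nptx2) follows. In the hippocampus these genes are used as a read-out of recent experience, and many of them are driven by CREB, a factor that binds the cyclic AMP response element (CRE).

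The promoter stretches below show the core of that element in some of the activity-induced genes described here, picked from those with a match upstream of the start. Other genes described here have no stretch shown. They are RefSeq sequences of build GRCm38.p6, all upstream of the annotated start, read 5′ to 3′ on the gene's strand, with each CRE core (TGACG, or CGTCA on the other strand) in capitals. Fos is on chromosome 12 (chr12:85473741-85473848, plus strand), Fosb on chromosome 7 (chr7:19310081-19310125, minus strand), Junb on chromosome 8 (chr8:84978830-84978874, minus strand), Egr4 on chromosome 6 (chr6:85513674-85513786, minus strand), Nr4a2 on chromosome 2 (chr2:57124090-57124223, minus strand) and Homer1 on chromosome 13 (chr13:93303681-93303756, plus strand).
Fos: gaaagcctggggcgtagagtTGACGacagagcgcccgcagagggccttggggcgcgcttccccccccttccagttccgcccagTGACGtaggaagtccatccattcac
Fosb: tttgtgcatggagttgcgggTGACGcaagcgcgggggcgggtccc
Junb: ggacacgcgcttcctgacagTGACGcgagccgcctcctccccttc
Egr4: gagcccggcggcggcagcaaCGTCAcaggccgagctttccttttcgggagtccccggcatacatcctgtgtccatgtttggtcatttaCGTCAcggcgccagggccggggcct
Nr4a2: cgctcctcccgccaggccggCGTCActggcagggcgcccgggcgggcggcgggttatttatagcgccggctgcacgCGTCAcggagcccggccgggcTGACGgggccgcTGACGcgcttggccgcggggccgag
Homer1: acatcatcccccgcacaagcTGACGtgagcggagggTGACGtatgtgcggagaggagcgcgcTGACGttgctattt

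In windows of 300 bases around the start, searched on both strands, the CRE core was present in 17 of the 23 immediate early transcription factor genes with a RefSeq window (73.9%) and in 15 of the 21 immediate early effector genes (71.4%), against 3919 of 11737 tested genes (33.4%). The full site TGACGTCA, which contains the core on each strand, was in 2 of the 23 (8.7%) and 4 of the 21 (19%), against 3.43% of tested genes. The core was searched after the counts of the full site were seen. A match is a string of letters, not a measured binding site.

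No gene passed an adjusted p of 0.05 (edgeR, quasi-likelihood, Benjamini-Hochberg) in either direction (0% higher and 0% lower in trained WT mice), and the smallest adjusted p was 0.502. At an unadjusted p under 0.05, 747 genes were higher (4.78% of those tested) and 787 were lower (5.04%). The 3 trained libraries lay all above the 3 house controls for 1095 genes (7.01%) and all below them for 1218 (7.8%). Log2 fold changes were above 0 for 48.3% of genes and below 0 for 51.7%, with a median of -0.01. The groups below are therefore described by the values of their members, and "higher" or "lower" is a comparison of those values, not a passed test. Expression is in CPM, the counts of a gene scaled to library size with TMM factors, log2 fold changes are trained over house control, and values in a row follow replicates 1, 2 and 3.

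The tissue in the 6 libraries was not uniform, as the plot of marker levels by library shows. All markers of CA1 pyramidal neurons (12) and dentate granule neurons (15) were detected. Summed choroid plexus markers (19 genes) were at 353, 11679 and 23092 CPM in the house controls and at 5456, 233 and 12018 CPM in the trained libraries. Oligodendrocyte markers (14 genes) summed to 3623, 13456 and 14084 CPM and to 8093, 3084 and 8990 CPM. House control 3 alone had raised striatum and septum markers (1350 CPM against 400 to 484 CPM in the other 5), and thalamus markers ran from 603 to 1042 CPM in the house controls and from 573 to 707 CPM in the trained libraries. The choroid plexus and oligodendrocyte groups overlapped for every marker, yet their medians were negative (log2 fold changes of -0.95 and -0.65), since house control 2 and 3 were high and trained 2 was low. Without house control 3 the choroid plexus median was 0.12, and without trained 2 the oligodendrocyte median was -0.30. Ependymal markers were negative for 12 of 12 (median -1.21), striatum and septum markers for 15 of 15 (-1.19, and -0.19 without house control 3) and thalamus markers for 13 of 15 (-0.88). Values are therefore also given with house control 2 and 3 left out together, a setting chosen after these levels were seen, which leaves house control 1 as the only control library and turns the choroid plexus and oligodendrocyte medians to 4.24 and 0.90.

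**Figure D1:**
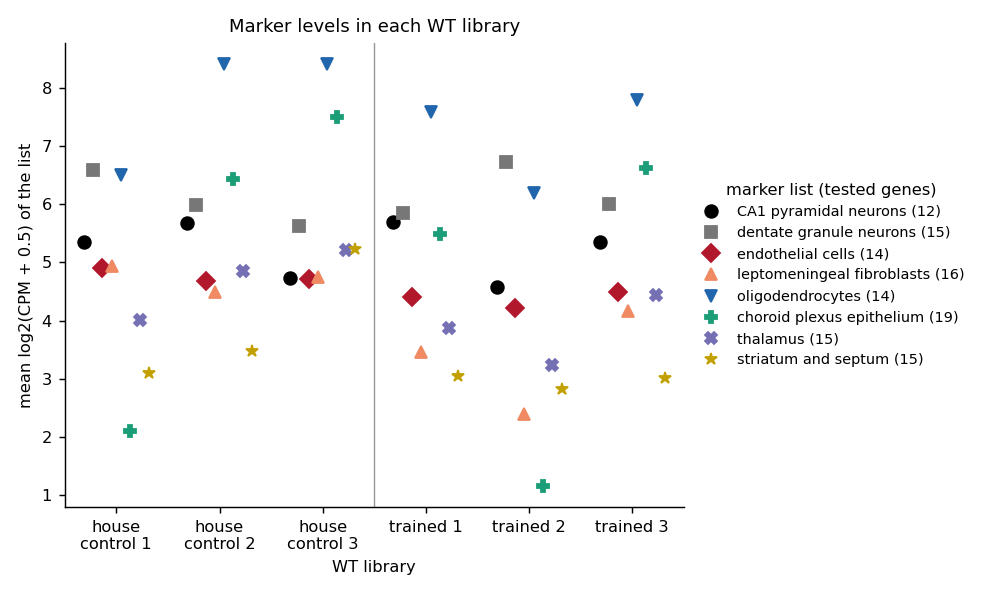
Mean log2(CPM + 0.5) over the tested genes of 8 marker lists (y axis) in each of the 6 WT libraries (x axis), 1 symbol per list. Choroid plexus markers span 2.1 to 7.5 within the house controls and 1.15 to 6.63 within the trained libraries, while endothelial markers are at 4.68 to 4.9 and 4.22 to 4.49.

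The immediate early transcription factors were higher on balance in trained mice. Of 29 tested members, 24 had a positive log2 fold change, with a median of 0.35, and 8 had all trained libraries above all house controls, where the share over all tested genes is 7.01%. None passed the edgeR test. The median was 0.20 without house control 2. Fos, the AP-1 subunit most used to mark active neurons, was at 3.5, 3.01 and 10.7 CPM in house controls and 13.6, 15 and 10.2 CPM in trained mice, a log2 fold change of 1.16 ± 0.40 (SE, 3 against 3 libraries; edgeR adjusted p = 0.502). House control 3 reached the trained range, so the groups overlapped. Without that library, Fos passed, with a log2 fold change of 1.99 and an edgeR adjusted p of 0.0383. Leaving out the highest control was bound to raise the change, so this pass is no support for it. Fos passed with no other single library left out, and over all alternative settings its log2 fold change ran from 0.85 to 2.14.

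Its partner Fosb was at 8.38, 4.17 and 10.2 CPM in house controls against 16, 14.2 and 11 CPM (0.86 ± 0.35). Junb, another AP-1 subunit, was at 40.6, 30.5 and 46.5 CPM against 59.7, 65.2 and 47 CPM (0.55 ± 0.20). For both, trained 3 lay just above the highest house control, which was house control 3. These are the WT libraries of the second number series. Fos and Arc were also nearly equal in this pair, while Egr4 (24.7 and 33.6 CPM) was not. Among the zinc finger factors of the Egr family, Egr4 was at 25.4, 29.8 and 24.7 CPM against 43.1, 36.3 and 33.6 CPM (0.50 ± 0.15). Egr1 was at 104, 77.8 and 136 CPM against 190, 137 and 155 CPM (0.61 ± 0.30), where trained 2 lay just above house control 3. Egr2, low in all libraries, overlapped (0.596 to 1.9 CPM in house controls and 1.69 to 2.37 CPM in trained mice).

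The Nr4a orphan nuclear receptors act in memory-related transcription, and each of the 3 separated without overlap. Nr4a1 was at 24.4, 31.5 and 29.7 CPM in house controls and 45.3, 36.6 and 41.2 CPM in trained mice (0.52 ± 0.15). Nr4a2 was at 29.2, 21.3 and 16.6 CPM against 42.2, 40.4 and 32.4 CPM (0.78 ± 0.27). Nr4a3 was at 121, 58.8 and 91.4 CPM against 164, 173 and 143 CPM (0.82 ± 0.31). Crem, a CREB relative that also encodes an inducible repressor, was at 9.1, 8.27 and 7.85 CPM against 11.6, 11.4 and 10 CPM (0.39 ± 0.11). Npas4, a neuron-specific activity-dependent factor, did not separate (4.27, 5.26 and 10.6 CPM against 12.9, 8.59 and 4.21 CPM, 0.35 ± 0.45), and its sign turned to -0.08 without trained 1.

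**Figure D2:**
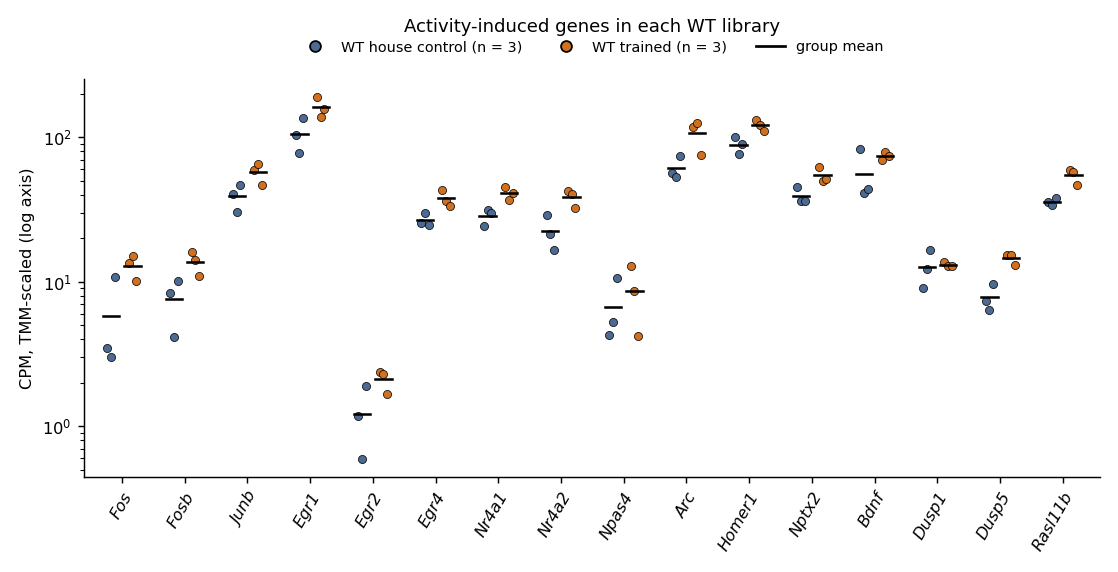
Expression in CPM on a log axis of 16 activity-induced genes (x axis) in the 3 WT house control and the 3 WT trained libraries, with a bar at each group mean. The groups are apart for genes such as Nr4a1, Homer1, Dusp5 and Rasl11b, and barely so for Arc. They overlap for Fos (house control 3 at 10.7 CPM), Egr2, Npas4, Bdnf and Dusp1.

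Of the immediate early effector genes, 20 of 29 tested had a positive log2 fold change (median 0.18). Of them 8 separated upward and 1 downward, where the shares over all tested genes are 7.01% and 7.8%. The median was 0.11 without house control 1 and 0.10 without trained 3. Arc, a capsid-like protein that regulates AMPA receptor uptake, was at 56.6, 53.4 and 74.4 CPM in house controls and 117, 126 and 75 CPM in trained mice (0.79 ± 0.25). Trained 3 was barely above house control 3, and the other 2 trained libraries were well above all controls. Homer1, a postsynaptic scaffold with a short activity-induced form that these gene-level counts do not tell apart, was at 99.9, 77 and 89.3 CPM against 131, 121 and 111 CPM (0.45 ± 0.15). Rasl11a, a RAS-like small GTPase, was at 7.46, 4.24 and 6.73 CPM against 9.15, 10.8 and 9.65 CPM (0.69 ± 0.29). Per2, a clock repressor also induced by CREB, was at 31.6, 20.8 and 34.9 CPM against 36.2, 50.1 and 41.1 CPM (0.55 ± 0.18).

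The delayed activity-induced genes moved less. Positive values were found for 23 of 34 (median 0.17), 4 separated upward and 2 downward (7.01% and 7.8% over all tested genes, so near the background). The median was 0.10 without trained 1, and with house control 2 and 3 left out 17 of 34 were positive with a median of 0.00. Nptx2, a secreted pentraxin that clusters AMPA receptors, was at 45.3, 36 and 36.2 CPM against 61.9, 49.7 and 51.5 CPM (0.48 ± 0.13). Inhba, which encodes the activin A subunit, was at 6.07, 3.89 and 4.83 CPM against 6.33, 7.03 and 6.97 CPM (0.46 ± 0.18). Gpr3, a constitutively active receptor that raises cyclic AMP, was at 4.06, 3.5 and 4.67 CPM against 5.35, 6.38 and 4.94 CPM (0.45 ± 0.15). All 3 separated without overlap. Bdnf, the neurotrophin of activity-dependent plasticity, overlapped because house control 1 was at 82.2 CPM, above all trained libraries (68.9, 78.3 and 73.8 CPM), while house control 2 and 3 were at 40.8 and 44 CPM. Mapk4, an atypical MAP kinase, went the other way (82.3, 89.8 and 103 CPM against 66.2, 57.8 and 80.8 CPM, -0.43 ± 0.14).

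Feedback inhibitors of ERK signalling, the kinase cascade that links synaptic activity to immediate early transcription, were positive for 18 of 22 members (median 0.15), and 4 separated upward and none downward (7.01% and 7.8% over all tested genes). Dusp5, a nuclear phosphatase of ERK on chromosome 19 (53529109 to 53542431 in mm10), was at 7.3, 6.41 and 9.71 CPM in house controls against 15.3, 15.3 and 13 CPM in trained mice, a difference of 0.90 ± 0.19. Dusp6, the cytoplasmic ERK phosphatase, was at 45.5, 38.4 and 49.7 CPM against 61.9, 60 and 54.8 CPM (0.40 ± 0.15). Spry3, a Sprouty family inhibitor, was at 13.9, 12.1 and 13.3 CPM against 15.6, 19.2 and 16.1 CPM (0.38 ± 0.11). Dusp1, itself an immediate early gene, was at 9.1, 12.2 and 16.5 CPM against 13.7, 12.8 and 12.8 CPM, and its log2 fold change of 0.06 turned to -0.13 without house control 1. With house control 2 and 3 left out, 13 of the 22 were positive (median 0.08).

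Glucocorticoid-responsive genes, which read out the stress hormone corticosterone, were positive for 18 of 27 members (median 0.18), with 4 separate upward and 1 downward (7.01% and 7.8% over all tested genes). The median was 0.096 without house control 1 and 0.086 without house control 2. Hif3a, a hypoxia-inducible factor subunit, was at 2.93, 6.06 and 4.17 CPM in house controls and 8.91, 10.3 and 9 CPM in trained mice (1.09 ± 0.26). Zbtb16, a zinc finger repressor, was at 78.6, 50 and 41.4 CPM against 102, 137 and 89.9 CPM (0.95 ± 0.29). Fkbp5, the co-chaperone that restrains the glucocorticoid receptor, was at 78.7, 67.1 and 51.9 CPM against 79.8, 109 and 85.4 CPM (0.47 ± 0.21). For Fkbp5, house control 1 lay just under trained 1. Core clock genes were split, with 12 of 21 positive (median 0.03, and -0.06 without trained 2) and 2 separate in each direction. Bhlhe41, a clock repressor, was lower (62.6, 78.2 and 69.8 CPM against 55, 56.9 and 59 CPM, -0.30 ± 0.11).

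Heat shock and protein folding genes were positive for 27 of 34 members (median 0.11), and 7 separated upward and none downward (7.01% and 7.8% over all tested genes). The median was 0.070 without house control 2 and 0.17 without house control 3. The HSP40 co-chaperone Dnajb1 was at 41.7, 40.2 and 46.1 CPM against 49.8, 51.3 and 48.2 CPM (0.22 ± 0.07). The HSP110 family member Hsph1 was at 355, 260 and 323 CPM against 390, 403 and 377 CPM (0.32 ± 0.13). Chordc1, an HSP90 co-chaperone, was at 55.3, 49.4 and 57.2 CPM against 62.8, 68.1 and 60.4 CPM (0.24 ± 0.09). The differences were small and the separations narrow. Hspb1, a small heat shock protein, was lower in value (5.66, 5.01 and 8.22 CPM against 4.25, 3.89 and 5.17 CPM), with overlap.

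Most synaptic transcripts had small positive values, but few separated. Presynaptic release genes were positive for 34 of 40 (median 0.27), with 5 separate upward and 1 downward. Postsynaptic density genes and kinases were positive for 32 of 36 (median 0.23), with 4 separate upward and 1 downward. Over all tested genes 7.01% separated upward and 7.8% downward. Syt1, the calcium sensor of fast release, was at 1621, 1169 and 1315 CPM in house controls and 1821, 1759 and 1758 CPM in trained mice (0.38 ± 0.13). Sv2b, a synaptic vesicle glycoprotein, was at 376, 225 and 334 CPM against 503, 405 and 435 CPM (0.52 ± 0.18), and Rab3a, a vesicle GTPase, at 461, 387 and 375 CPM against 490, 513 and 465 CPM (0.26 ± 0.09). Camk2d, a CaMKII subunit found in many cell types, was lower (61.3, 71.9 and 63.8 CPM against 43.4, 45.4 and 54.8 CPM, -0.46 ± 0.17). In these 4 genes house control 1 was the control nearest the trained libraries. With house control 2 and 3 left out, 24 of the 40 presynaptic genes (median 0.02) and 13 of the 36 postsynaptic genes (median -0.07) were positive. Without house control 1 alone the medians were 0.44 and 0.43, and without house control 3 alone 0.20 and 0.11. With the choroid plexus marker mean as a covariate the presynaptic and postsynaptic medians were 0.24 and 0.20. They were 0.20 and 0.11 with the oligodendrocyte marker mean, and 0.17 and 0.04 with the thalamus marker mean. The part of tissue makeup in these values was not tested.

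Receptor subunits did not move as a block. Ionotropic glutamate receptor genes were positive for 17 of 31 (median 0.09), and GABA-A receptor and GABA synthesis genes for 10 of 21 (median -0.02). Of the 31, 1 separated upward and 2 downward, and of the 21, 1 in each direction. The shares over all tested genes are 7.01% and 7.8%, so neither list stood out from the background. With 1 library left out the glutamate receptor median ran from -0.06 (trained 2) to 0.30 (house control 1) and the GABA one from -0.06 (house control 3) to 0.09 (house control 2). Grin1, the obligatory NMDA receptor subunit, was at 533, 425 and 393 CPM against 570, 540 and 539 CPM (0.29 ± 0.12), while Grin2d, an NMDA receptor subunit of interneurons, was at 16.3, 16.3 and 15.7 CPM against 14.1, 13.6 and 12.4 CPM (-0.27 ± 0.14). Both separated without overlap, in opposite directions. Slc6a11, the astrocytic GABA transporter GAT3, was at 153, 160 and 160 CPM in house controls and 127, 125 and 126 CPM in trained mice (-0.32 ± 0.10), with less spread inside each group than between them. Among neuropeptide genes, 10 of 21 were positive, and Cck, the precursor of cholecystokinin, was at 249, 201 and 187 CPM against 330, 261 and 276 CPM (0.44 ± 0.14).

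**Figure D3:**
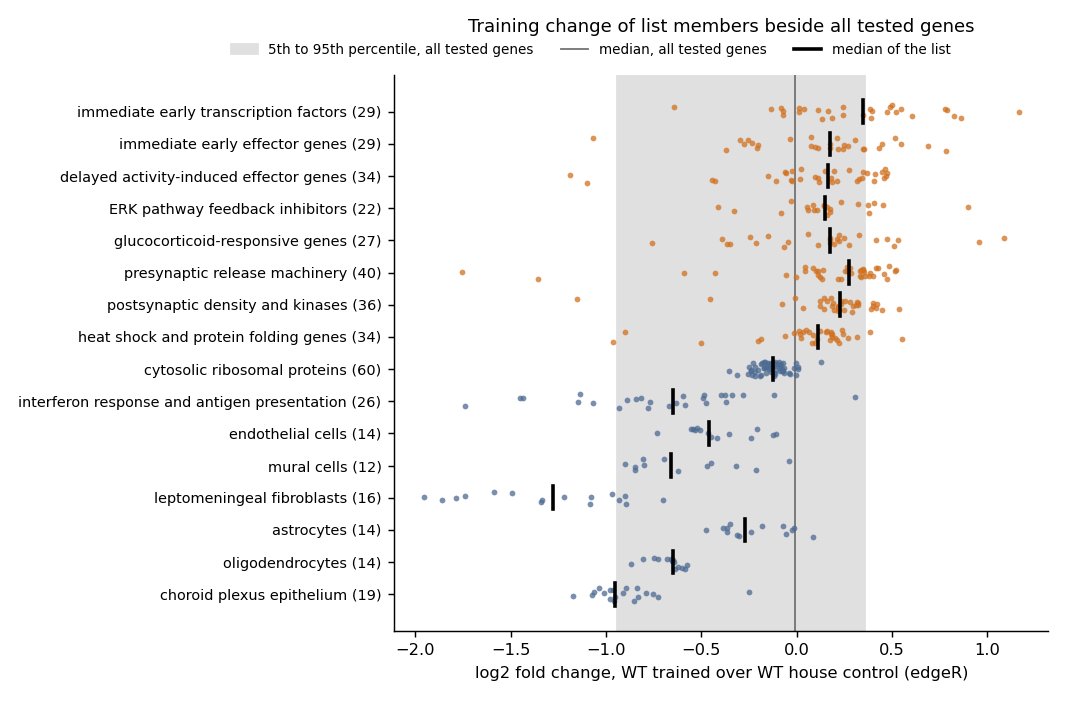
Log2 fold change of trained over house control WT libraries (x axis, edgeR) for each tested member of 16 lists (rows, number of tested genes in parentheses), beside the range from the 5th to the 95th percentile of all tested genes (-0.94 to 0.36). Medians run from 0.35 for the immediate early transcription factors to -1.28 for the leptomeningeal fibroblast markers.

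Genes of the vessel wall and the leptomeninges were lower in trained libraries. All 14 endothelial markers were negative (median -0.46) and 10 of them separated downward, where the share over all tested genes is 7.8%. All 12 mural markers were negative (median -0.66) with 5 separate, and all 16 leptomeningeal fibroblast markers were negative (median -1.28) with 13 separate. None passed the edgeR test. In bulk tissue, fewer cells of a type and less RNA per cell cannot be told apart. Summed endothelial markers were at 458 to 531 CPM in house controls and 348 to 413 CPM in trained libraries, and mural markers at 224 to 321 CPM and 149 to 196 CPM, with no overlap in either case. Leptomeningeal markers summed to 1446 to 2069 CPM and 215 to 1374 CPM. No marker of the 3 lists was at 0 in all libraries.

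The endothelial genes named here were all lower, but each was picked by its values in this comparison. Nos3, Acvrl1 and Elk3 are not on the marker list and were named for a small unadjusted p among genes that separate. Pecam1, Slco1a4 and Itm2a were named from the list by smallest unadjusted p. These genes are therefore examples and no independent support for the list. Nos3, the endothelial nitric oxide synthase (chromosome 5, 24364810 to 24384474), was at 11.3, 11.6 and 11.7 CPM in house controls and 7.85, 6.58 and 6.82 CPM in trained mice (-0.70 ± 0.12), a 1.63-fold difference. Acvrl1, the endothelial receptor of BMP9, was at 16, 14.5 and 16.6 CPM against 9.23, 8.27 and 12.6 CPM (-0.65 ± 0.14). The ETS factor Elk3 (chromosome 10, 93247414 to 93311135) was at 16.9, 15.4 and 15 CPM against 10.3, 10.4 and 9.92 CPM (-0.62 ± 0.11). The junction protein Pecam1 was at 24.5, 20.1 and 23.5 CPM against 17, 15.5 and 18.4 CPM (-0.42 ± 0.10). Slco1a4, an organic anion transporter of the blood-brain barrier, was at 46, 48 and 51.3 CPM against 33.3, 27.2 and 38.5 CPM (-0.55 ± 0.13), and Itm2a at 48.6, 39.4 and 39.9 CPM against 28.7, 27.7 and 33.5 CPM (-0.51 ± 0.15). In all 6 genes the highest trained library stayed under the lowest house control, which for Nos3, Acvrl1 and Elk3 was a condition of being named.

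Of the mural cell genes, Pdgfrb, the receptor that recruits pericytes, was at 41.1, 29.4 and 31.3 CPM against 25.3, 18 and 22.8 CPM (-0.62 ± 0.14). Vtn, a matrix glycoprotein made by pericytes, was at 113, 73.7 and 76.5 CPM against 49.6, 45.2 and 67.7 CPM (-0.69 ± 0.18), and Notch3, the Notch receptor of vascular smooth muscle, at 28.3, 18.3 and 20.7 CPM against 18.1, 14.8 and 15.6 CPM (-0.47 ± 0.14). House control 1 was the highest library for each of these. Foxf2, a pericyte transcription factor, was at 8.33, 6.03 and 5.29 CPM against 3.76, 3.33 and 4.1 CPM (-0.81 ± 0.18). Lama4, a laminin chain of the vessel basement membrane, was at 7.4, 5.29 and 6.11 CPM against 3.27, 3.21 and 3.29 CPM (-0.94 ± 0.20), with the trained libraries nearly equal.

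Leptomeningeal genes were lower with more spread. Slc22a6, an organic anion transporter, was at 19.1, 7.08 and 5.87 CPM against 2.04, 1.49 and 5.25 CPM (-1.86 ± 0.74). Gjb2, a gap junction connexin, was at 27, 13.1 and 12.1 CPM against 4.98, 3.45 and 8.92 CPM (-1.59 ± 0.59), and the GABA transporter Slc6a13 at 30.3, 14.3 and 11 CPM against 4.37, 2.85 and 9.38 CPM (-1.74 ± 0.73). Trained 2 was the lowest library and trained 3 the nearest to the controls in each. Nupr1, a stress-responsive chromatin protein, was at 3.5, 2.84 and 3.68 CPM against 1.63, 1 and 2.07 CPM (-1.08 ± 0.30).

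House control 1 had the highest mean log2 level in all 3 lists, and without it the medians were -0.32 (endothelial), -0.44 (mural) and -1.15 (leptomeningeal). The leptomeningeal median was -0.85 without trained 2 and -1.98 without trained 3. Against house control 1 alone the medians were -0.56, -0.96 and -1.46. With the choroid plexus marker mean as a covariate the medians were -0.45, -0.66 and -1.37. With the thalamus marker mean they were -0.40, -0.59 and -0.78. The part of tissue makeup in these values was not tested.

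**Figure D4:**
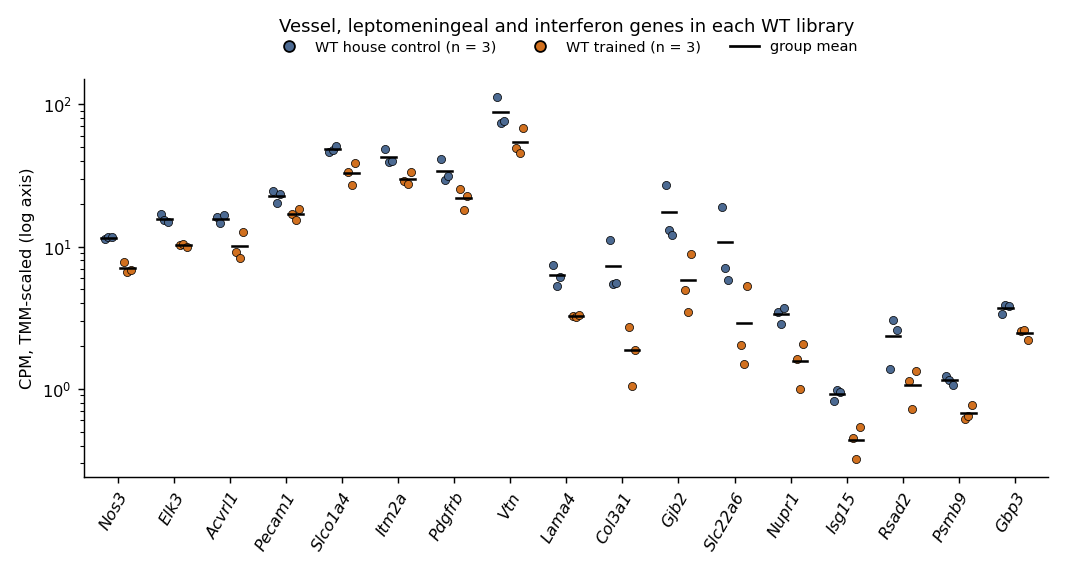
Expression in CPM on a log axis of 17 vessel, leptomeningeal and interferon genes (x axis) in the 3 WT house control and the 3 WT trained libraries, with a bar at each group mean. In every gene drawn the trained libraries lie below the house controls; the gap is narrow in Rsad2, where trained 3 is at 1.34 CPM and house control 1 at 1.39 CPM.

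Interferon response and antigen presentation genes were lower as well. Of 26 tested members 25 were negative (median -0.65), where 51.7% of all tested genes were negative. Of the 26, 14 separated downward and none upward, where the shares over all tested genes are 7.8% and 7.01%. Many of these genes are driven through the interferon-stimulated response element (ISRE), bound by STAT and IRF factors, and 10 of the 20 members with a RefSeq window (50%) held its core, TTTC, any 2 bases and TTTC again, on either strand, against 3.6% of tested genes. The stretches below show it in capitals, where matches that overlap each other form a longer run. They are upstream of the starts of Isg15 (chr4:156200855-156200916, minus strand), Rsad2 (chr12:26456543-26456592, minus strand), Ifit1 (chr19:34640765-34640833, plus strand) and B2m (chr2:122147528-122147577, plus strand), in GRCm38.p6 and 5′ to 3′ on the gene's strand.
Isg15: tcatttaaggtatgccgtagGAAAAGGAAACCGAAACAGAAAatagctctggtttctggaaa
Rsad2: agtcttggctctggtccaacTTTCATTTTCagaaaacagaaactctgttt
Ifit1: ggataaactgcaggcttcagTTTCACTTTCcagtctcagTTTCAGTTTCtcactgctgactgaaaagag
B2m: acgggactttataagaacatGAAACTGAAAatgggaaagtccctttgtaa

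Isg15, the ubiquitin-like modifier of the interferon response, was at 0.823, 0.981 and 0.95 CPM in house controls and 0.45, 0.321 and 0.536 CPM in trained mice (-1.07 ± 0.39). Rsad2, the antiviral enzyme viperin, was at 1.39, 3.05 and 2.6 CPM against 1.14, 0.723 and 1.34 CPM (-1.14 ± 0.38). Ifit1, which binds foreign RNA, was at 1.95, 2.24 and 2.68 CPM against 1.47, 0.682 and 0.958 CPM (-1.14 ± 0.44). B2m, the light chain of MHC class I, was at 58.3, 73.4 and 84.1 CPM against 54, 51 and 49.3 CPM (-0.48 ± 0.20). Psmb9, an immunoproteasome subunit, was at 1.23, 1.16 and 1.07 CPM against 0.613, 0.642 and 0.766 CPM (-0.77 ± 0.29), and the guanylate-binding protein Gbp3 at 3.34, 3.89 and 3.8 CPM against 2.53, 2.61 and 2.22 CPM (-0.58 ± 0.21). All 6 separated without overlap, several of them at about 1 CPM, where 3 counts are 0.105 to 0.154 CPM. The Gbp, Ifit and MHC genes have close paralogs, and how reads shared between copies were counted is not stated by the labels. The list was less low with house control 2 and 3 left out (20 of 26 negative, median -0.33) and with the thalamus marker mean as a covariate (22 of 26 negative, median -0.25), and the part of tissue makeup in it was not tested.

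For the counts that follow, the shares of all tested genes that separated were 7.01% upward and 7.8% downward. Astrocyte markers were negative for 13 of 14 (median -0.27) with 3 separate. Microglia markers were negative for 11 of 14 (median -0.10) with 1 separate. CA3 pyramidal markers were positive for 9 of 11 (median 0.39) with 1 separate in each direction. CA1 and dentate granule markers had medians of 0.05 and 0.15, and no dentate marker separated. With 1 library left out the CA1 median ran from -0.28 (trained 1) to 0.33 (house control 2) and the dentate median from -0.21 (trained 2) to 0.53 (house control 1). Dentate markers summed highest in house control 1 (1888 CPM) and trained 2 (2101 CPM), and ran from 911 to 1269 CPM in the other 4 libraries. Cytosolic ribosomal protein genes were negative for 57 of 60 and 22 separated downward, but their median was -0.13, and these genes have many near-identical pseudogene copies. Nuclear-encoded respiratory chain genes (median -0.02) and cholesterol synthesis genes (-0.01) lay near the median of all genes.

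Beyond the lists, 10 genes in each direction were named as the separate genes with the smallest unadjusted p. Rasl11b, a RAS-like small GTPase on chromosome 5 (74195286 to 74199481), had the smallest p of all of them (unadjusted p = 5.47e-05; edgeR adjusted p = 0.502). It was at 35.7, 33.7 and 37.8 CPM in house controls and 59, 57.5 and 46.8 CPM in trained mice, a log2 fold change of 0.61 ± 0.09. Dusp5 and Hif3a, described above, were among the 10, and Syce2, which encodes a synaptonemal complex protein, was at 2.31, 2.21 and 1.98 CPM against 4.37, 3.73 and 3.79 CPM (0.87 ± 0.22). Pde1a, a calmodulin-dependent phosphodiesterase, was at 110, 90.4 and 81.9 CPM against 161, 126 and 123 CPM (0.54 ± 0.13), and Gpt2, the mitochondrial alanine transaminase, at 65.7, 60.7 and 59.8 CPM against 92.2, 86.8 and 73.9 CPM (0.44 ± 0.11). The other 4 were Lingo3, Ube2v2, Papd7 and Nmt2, between 0.2 and 0.43, and none of the 10 is a marker of the glial or vascular lists.

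Of the 10 lower genes, Nos3, Elk3, Acvrl1, Lama4 and Foxf2 are given above. Atp13a4, a P5-type ATPase on chromosome 16 (29395853 to 29544864), was at 17.9, 18.1 and 14.5 CPM in house controls and 9.48, 9.8 and 8.35 CPM in trained mice (-0.87 ± 0.15). Wtip, a LIM domain protein, was at 9.87, 10.3 and 10.4 CPM against 6.46, 5.3 and 7.09 CPM (-0.70 ± 0.14). Adgre5, the adhesion receptor CD97, was at 13.3, 11.7 and 13.7 CPM against 8.7, 8.79 and 7.43 CPM (-0.63 ± 0.11). Gas1, a Hedgehog co-receptor, was at 20.9, 20.8 and 16.4 CPM against 14, 13.3 and 13.8 CPM (-0.50 ± 0.10), and Esyt1, a tether between endoplasmic reticulum and plasma membrane, at 12.8, 10.9 and 13.9 CPM against 7.93, 7.03 and 8 CPM (-0.71 ± 0.16).

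Other tools called a few genes on the same counts. DESeq2 on the 12 libraries called 3 genes higher (0.02% of those given an adjusted p) and 8 lower (0.0534%): Rasl11b, Dusp5 and Nmt2, and Nos3, Elk3, Atp13a4, Adgre5, Wtip, Gas1, the linker histone H1f0 and the interferon-inducible Parp14. The authors' deposited table, which rests on the 6 WT libraries, holds 4 higher (0.0247%) and 15 lower genes (0.0927%) at an adjusted p under 0.05. Higher in the authors' deposited table were Tmem59l, Rasl11b, Dusp5 and the ephrin receptor Epha6. Lower were Atp13a4, Elk3, Slc6a11, Nos3, Ebf1, Col3a1, Cd163, Clec14a, Podxl, Lama4, Ephb4, Col6a2, Fcgrt, Esyt1 and C2. These include endothelial surface proteins (Clec14a, Podxl, Ephb4), fibrillar and microfibrillar collagens (Col3a1, Col6a2) and a scavenger receptor of perivascular macrophages (Cd163). The largest difference there was that of Col3a1, with a log2 fold change of -1.95 and an adjusted p of 0.0437 in the authors' deposited table. By TMM-scaled CPM it was at 11.1, 5.43 and 5.53 CPM in house controls and 2.74, 1.04 and 1.88 CPM in trained mice. Tmem59l, a neuronal membrane protein, was at 176, 165 and 131 CPM against 235, 236 and 234 CPM. All 19 genes of the authors' deposited table had groups that did not overlap, where the shares over all tested genes are 7.01% upward and 7.8% downward. They were called on the same 6 libraries, so their separation is no independent support. Of these genes, 5 (26.3% of the 19 and 45.5% of the 11) were also called by DESeq2.

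Whether the change differed from that in Mbnl2 KO mice was tested as the difference between the 2 changes. No gene passed in either direction by edgeR (0% and 0%; smallest adjusted p 1.00) or by DESeq2, and 235 genes (1.5%) had an unadjusted p under 0.05. Of the 29 immediate early transcription factors, 24 were positive in WT and 24 in KO mice (medians 0.35 and 0.28), where 49.1% of all genes were positive in KO, and 11 separated upward in KO, where the share over all genes is 3.34%. Fos changed by 1.74 ± 0.40 in KO against 1.16 ± 0.40 in WT in log2 terms (difference -0.57 ± 0.56), and Arc by 1.07 ± 0.25 against 0.79 ± 0.25 (-0.28 ± 0.35), neither past the test. Egr2 had a value of 2.72 in KO and 0.79 in WT (unadjusted p of the difference 0.0294). The changes of the vessel lists were nearer 0 in KO, with medians of -0.13 (endothelial), -0.06 (mural) and -0.07 (leptomeningeal). The KO house controls were already lower than the WT house controls in these lists. In the same order, the highest mean log2 level of a KO house control was 4.57, 3.26 and 4.27. The lowest of a WT house control was 4.68, 3.3 and 4.49, and the highest of a WT trained library 4.49, 3.21 and 4.16. The cause of the lower KO house control levels was not tested. Per gene, Nos3 changed by -0.70 in WT and -0.18 in KO (difference -0.53 ± 0.17, edgeR unadjusted p = 0.00977). Lama4 changed by -0.94 and -0.50 (-0.44 ± 0.29), and Pdgfrb by -0.62 and -0.27 (-0.36 ± 0.20). Atp13a4 had values of opposite sign, -0.87 in WT and 0.14 in KO (difference -1.01 ± 0.22, edgeR unadjusted p = 0.00079). Nos3, Lama4, Pdgfrb and Atp13a4 were named for a small unadjusted p in WT, and the WT change is part of the difference. A KO value nearer 0 is therefore favoured by the way they were picked, and their unadjusted p-values are no support for a genotype difference. With none past the adjusted threshold, no gene or list is shown here to differ between the genotypes.

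**Figure D5:**
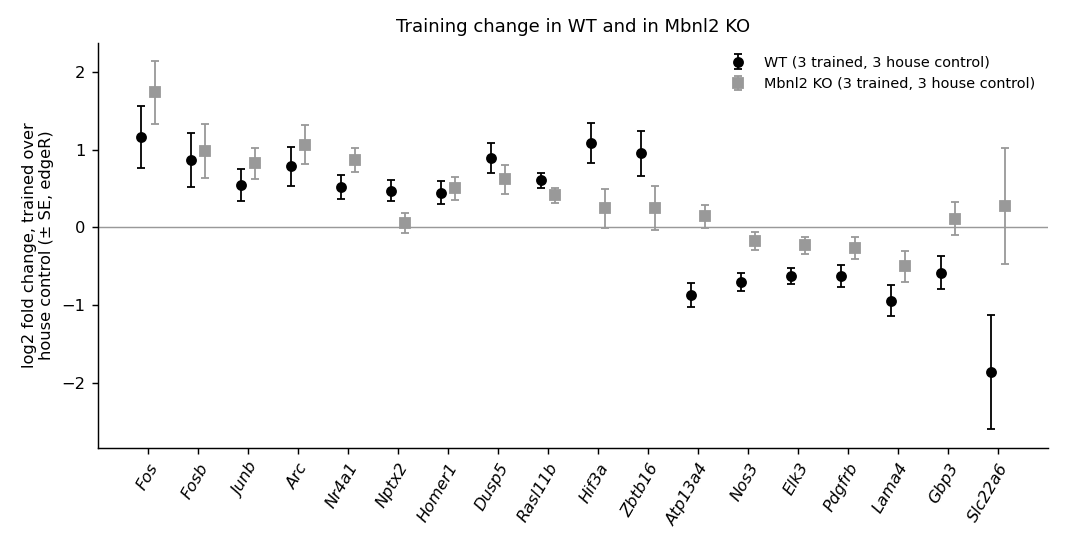
Log2 fold change of trained over house control (y axis, ± SE from edgeR) for 18 named genes (x axis) in WT and in Mbnl2 KO libraries, 3 against 3 in each. Activity-induced genes such as Arc (0.79 in WT, 1.07 in KO) lie above 0 in both genotypes. The error bars of Atp13a4 (-0.87 and 0.14), a gene named for its WT change, are apart.

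In WT mice the muscleblind genes themselves differed little. Mbnl2 was at 338, 315 and 324 CPM in house controls and 360, 363 and 365 CPM in trained mice (0.16 ± 0.07, separate). Mbnl1 was at 78.2, 102 and 106 CPM against 81.5, 84.1 and 86.4 CPM (-0.18 ± 0.11), and Mbnl3 at 0.103, 0.666 and 1.45 CPM against 0.695, 0.0803 and 1.38 CPM. Only Mbnl2 had groups that did not overlap, and neither it nor the others passed the edgeR test.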

How the data were processed

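The authors deposited 1 file of raw read counts by gene symbol for each of the 12 libraries. Per the submitters' processing notes, TopHat2 2.1.1, HTSeq 0.9.1, Bowtie2 2.3.4.2, cutadapt 1.18 and DESeq2 1.18.1 were used, with build mm10. No source used here states whether counting used strand, so reads of a gene and of its antisense or overlapping neighbour may be mixed. The deposited WT and KO training tables hold, per the file headers, p-values before and after adjustment, a score (the Wald statistic), the log2 fold change and its error, and the mean signal.

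The filter was filterByExpr of edgeR 4.0.16 in R 4.3.3, at a minimum count of 10 and a minimum total of 15, and scaling was by TMM. A robust quasi-likelihood model of 4 group means was fitted to all 12 libraries, which share 1 estimate of the spread (8 residual degrees of freedom); only the WT training contrast and its difference from the KO one were read. P-values were adjusted over all 15622 genes by Benjamini-Hochberg at 0.05. The SE is the one the F statistic implies. An exact permutation of 3 against 3 cannot go below 0.1. DESeq2 1.42.0 and limma 3.58.1 (voom) served as alternatives. No 2 libraries of a group were identical, and 3 counts in a WT library are 0.105 to 0.154 CPM, a limit of counting error only. Promoters were matched by symbol to RefSeq windows (GRCm38.p6) for 11737 tested genes, and gene positions are from GENCODE vM21 (96.1% of tested symbols).

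The comparison, the gene lists and the rule for named genes were chosen with earlier results of these data known. Named were up to 10 separate genes per direction (past the threshold, then by smallest unadjusted p, at a mean of at least 1 CPM), up to 4 per list by smallest p, 12 well-known activity genes, Mbnl1 to Mbnl3 and up to 5 per direction of the authors' table. Nr4a3, Ifit1, B2m, H1f0, Parp14 and the other genes of the authors' table and of DESeq2 were named after their values were seen. The edgeR p-values set a group difference against the spread between libraries of a group, estimated from all 12 libraries, the 6 KO ones included. Alternatives were other tools, scalings and filters, the WT libraries alone, animal number series, marker means as covariates and each library left out.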

Additional observations from a re-analysis of the deposited data

How the results depend on the processing

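The count of 0 genes in each direction held in edgeR with median-of-ratios scaling, other filters, the 6 WT libraries alone, the animal number series as a covariate or its first series alone, marker means as covariates and no robust estimation, and in limma voom. DESeq2 gave 3 higher and 8 lower. Leaving out 1 library at a time gave 0 to 1 genes higher, the 1 being Fos without house control 3. Of the named genes' log2 fold changes, Npas4 ran from -0.078 (without trained 1) to 0.84 and Dusp1 from -0.13 (without house control 1) to 0.30 with 1 library left out, and Bdnf turned to -0.16 and Mbnl1 to 0.11 with house control 2 and 3 left out. Mbnl3, at or below 1.45 CPM in each library, turned from -0.06 to 0.47 with the choroid plexus, 1.26 with the thalamus and 0.83 with the oligodendrocyte marker mean as a covariate, 0.47 without trained 2, 0.83 without house control 3 (-0.94 without trained 3) and 2.75 with house control 2 and 3 left out. The cause was not tested. The oligodendrocyte covariate and the removal of house control 2 and 3 were chosen after seeing the data. No paired analysis was possible because the labels give no replicate numbers shared between groups, and the numbers used here only follow the order of deposit.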
